A study of Mus musculus with 16 samples.

Results

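The cytosolic ribosomal protein genes are the genes that encode the protein parts of the cell's ribosomes outside the mitochondria. They were followed in C2C12, a long-established line of mouse myoblasts whose cells fuse to myotubes once serum is lowered. Members were the protein-coding rows of the deposited expression table whose names begin with Rpl or Rps and a number, or are Rplp0, Rplp1 or Rplp2, without names containing -ps (processed copies) and without the S6 kinase genes. This name rule took in 86 of 35275 listed genes, 52 named for the large subunit and 34 for the small subunit. A few subunit genes have other names, such as Rpsa, Fau and Gnb2l1, and were followed as a separate list.

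All cells were labelled PAX7 negative. The control lines were 2 wild-type populations, and the knockout (tKO) lines were 2 single clones lacking miR-206 and both copies of miR-1a, miR-1a-1 and miR-1a-2. Growth medium (GM) cells were kept in 20% fetal bovine serum, and differentiating cells were held in 2% horse serum for 3 days (DM3). Each of the 4 groups, named here by genotype and medium, therefore held 4 libraries of poly(A)-enriched RNA, made of 2 lines with 2 cultures (BR1 and BR2 in the titles) each. Nothing beyond these titles describes how separate the cultures were, so p-values measure only the spread between these libraries. A genotype difference is also a difference between 2 populations and 2 clones, and with 1 clone per line the effects of a clone and of its genotype cannot be told apart within a line. The study's title is about this microRNA family in muscle, and the ribosomal protein genes were read here as part of the same libraries.

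A ribosome is built in the nucleolus and cytoplasm from ribosomal RNA and a matching set of ribosomal proteins, so cells make these proteins in matched amounts and from very abundant mRNAs. Most of these mRNAs begin with a C followed by an unbroken run of pyrimidines, the 5′ terminal oligopyrimidine (TOP) tract, through which mTORC1 and the RNA-binding protein Larp1 set how much of the mRNA is translated. Growth and proliferation call for new ribosomes, and assembly factors and RNA polymerase I are known to fall as cells leave the cell cycle. A few ribosomal proteins have paralogs with their own tissue pattern, such as Rpl3l in striated muscle and Rpl22l1, whose mRNA is held down by Rpl22.

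Start-site sequences were read to see how many members carry a pyrimidine run near their annotated start. The windows below run from 15 bases before to 15 bases after a RefSeq gene start (build GRCm38.p6, sense strand, 5′ to 3′). Capitals mark a run that begins with C and goes on with at least 5 more C or T. The first 4 are long runs, the next 3 belong to members that differed between conditions, and the last 4 have no such run.
Rps6 (chromosome 4, 86857353 to 86857382, minus strand): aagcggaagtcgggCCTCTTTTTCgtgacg
Rpl15 (chromosome 14, 18270972 to 18271001, minus strand): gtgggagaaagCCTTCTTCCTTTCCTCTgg
Rpl27a (chromosome 7, 109519180 to 109519209, plus strand): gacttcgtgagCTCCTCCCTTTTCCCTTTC
Rps27 (chromosome 3, 90213634 to 90213663, minus strand): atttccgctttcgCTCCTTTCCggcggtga
Rpl22l1 (chromosome 3, 28805493 to 28805522, plus strand): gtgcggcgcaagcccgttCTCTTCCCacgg
Rpl39 (chromosome X, 37085208 to 37085237, minus strand): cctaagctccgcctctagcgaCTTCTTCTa
Rpl6 (chromosome 5, 121204486 to 121204515, plus strand): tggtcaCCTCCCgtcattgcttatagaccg
Rpl22 (chromosome 4, 152325711 to 152325740, plus strand): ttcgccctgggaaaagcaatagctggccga
Rpl41 (chromosome 10, 128549154 to 128549183, minus strand): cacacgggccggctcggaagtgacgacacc
Rpl7l1 (chromosome 17, 46782642 to 46782671, minus strand): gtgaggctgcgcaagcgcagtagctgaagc
Rps19bp1 (chromosome 15, 80264292 to 80264321, minus strand): cagggcggaagtagctcgccgcgtgtgggc

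Of the 86 members, 65 had a RefSeq start. Among the 58 subunit genes that were both matched and tested, 35 (60.3%) held such a run in at least one window, against 27.2% of 8491 tested genes with a start. Runs of at least 8 bases were in 44.8% of those subunit genes and in 11.9% of the tested genes. Rpl7l1 and Rps19bp1, which are not subunits of the finished ribosome, had none, while Rps27rt, a retrotransposed copy of Rps27, had a run of 6. A window without the run says only that these letters are not within 15 bases of that annotated start. Runs were counted anywhere in the window, also where they end before the annotated start, as in Rpl6, whose run of 6 begins 9 bases before it. These shares are therefore not shares of genes with a 5′ terminal tract.

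The 3 deleted microRNAs share a seed with one another. The mature miR-206 (mmu-miR-206-3p, chromosome 1, 20679055 to 20679076, plus strand, RefSeq) reads as follows, with the seed, bases 2 to 8, in capitals.
mmu-miR-206-3p: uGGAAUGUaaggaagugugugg
The 7-base sites that pair with this seed, ACATTCC or CATTCCA, were in the longest annotated 3′ UTR of 3 of 81 members, or 3.70%. They were in 19.1% of 10709 other tested protein-coding genes. Member 3′ UTRs were shorter, with a median of 160 bases against 1201. The 3 members with a site were Rpl5, Rps15a and Rps19. None of them passed the test between tKO and control cells in either stage. Their DM3 differences were -0.41, -0.27 and -0.26 (limma adjusted p = 0.105, 0.313 and 0.474). Without 1 tKO DM3 library (clone 1, culture 1, described further on) the differences were -0.54, -0.44 and -0.48. All 3 were then among 46 members called lower. That library was picked by the members' own values, so those calls are not read as a result.

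Depth was 22642563 to 56585952 fragments per library. The 3 microRNA genes were not analysed here, and the knockout was therefore not checked directly. The table's row for the host transcript of miR-206 and miR-133b, a muscle gene, held 0 to 4 fragments per library in control GM and 0 in every tKO GM library. In DM3 it held 59 to 608 fragments in control and 14 to 152 in tKO libraries. Markers of differentiated muscle summed to 42.6 to 61.2 FPKM (fragments per kilobase of gene, scaled to library depth) in control GM and 35.5 to 103 in tKO GM, and to 1414 to 2050 in control DM3. In tKO DM3 they summed to 660 to 2004 FPKM. Of the 14 listed muscle markers, 11 passed the expression filter. Summed endothelial markers stayed at or under 0.483 FPKM, blood cell markers under 4.07 and adipocyte markers under 11.7, with Lep at 0 in every library. Fibroblast markers, collagens among them, summed to 386 to 1230 FPKM in GM and 2012 to 3113 in DM3. Myoblast markers, Des among them, summed to 59.8 to 77.6 FPKM in control GM and 45.6 to 93.9 in tKO GM. In DM3 they summed to 315 to 475 in control and 137 to 378 in tKO cells. Myod1 held 0 fragments in every control GM library and 0 to 3 in tKO GM, while Myf5 held 685 to 1499 and 577 to 909.

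Ribosomal protein mRNAs were among the most abundant in every library. Of the 100 genes with the highest FPKM in a library, among all listed genes, between 37 and 50 were members. FPKM is scaled to the listed gene length, so ranks between genes depend on that length, which for some members far exceeds the coding length. Rplp1, one of the acidic stalk proteins that recruit elongation factors, led with a mean of 3402 FPKM over the 16 libraries. Next came Rplp0, the base of that stalk, at 2358, and Rps12 of the small subunit at 2270. Rpl41, a very short basic peptide, stood at 2007 and Rpl8, which lies near the peptidyl transferase centre, at 1946.

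At the other end, Rps27rt, a retrotransposed copy of Rps27, averaged 10.7 FPKM. Rps19bp1, a nucleolar protein that binds Rps19, averaged 44.6 and Rpl7l1, an assembly factor related to Rpl7, 47.2. These 3 are members by name only. The lowest canonical subunits above the filter were Rps15a at 83.1 and Rpl26 at 87.8 FPKM. The listed length of Rps15a is 5130 bases, against 390 coding bases. In fragments Rps15a held 9594 to 27734 per library and Rpl26 held 879 to 3645, so the low place of Rps15a depends on its listed length.

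The expression filter, a mean of at least 0.5 FPKM, kept 81 of the 86 members, of which 78 are canonical subunit genes or their paralogs. No fragment of Rpl10l, Rpl39l or Rps4l was counted in any library, which allows up to 3 fragments in each. Rpl3l, the striated muscle paralog of Rpl3, had 0 to 9 fragments per library. Rpl24, a canonical large subunit protein, was listed with only 0 to 16 fragments per library, while Rpl3 was at 398 to 777 FPKM. Reads shared with near-identical copies are a limit here, since how the authors assigned them is not given in the sources used here. The 246 rows named as ribosomal protein pseudogenes held 0.186% to 0.312% of all fragments, and Rps2-ps10 alone held 71.7% of those, at 1397 to 2637 FPKM against 578 to 952 FPKM for Rps2. Values of single members with such copies are therefore uncertain.

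The members' summed share of all FPKM gives their joint level in a library. In control GM it was 12.3%, 13.5%, 13.5% and 12.4%, here and in all later lists in the order line 1 culture 1, line 1 culture 2, line 2 culture 1, line 2 culture 2, where a line is a control population or a tKO clone. In tKO GM it was 14.5%, 14.9%, 12.8% and 13%. Clone 1 was above every control GM library and clone 2 within their range.

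In control DM3 the share was 15.5%, 16.3%, 16.0% and 14.4%, so each control DM3 library was above each control GM library. In tKO DM3 it was 17.7%, 11.9%, 13.3% and 11.05%. That group held both the highest and the lowest share of the 16 libraries. The share of fragments, which does not weight by gene length, was 4.88% to 5.64% and 5.27% to 6.17% in GM (control, then tKO) and 5.75% to 6.79% and 4.20% to 7.66% in DM3. In bulk RNA a change in a cell type's number and a change in its mRNA per cell cannot be told apart.

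**Figure D1:**
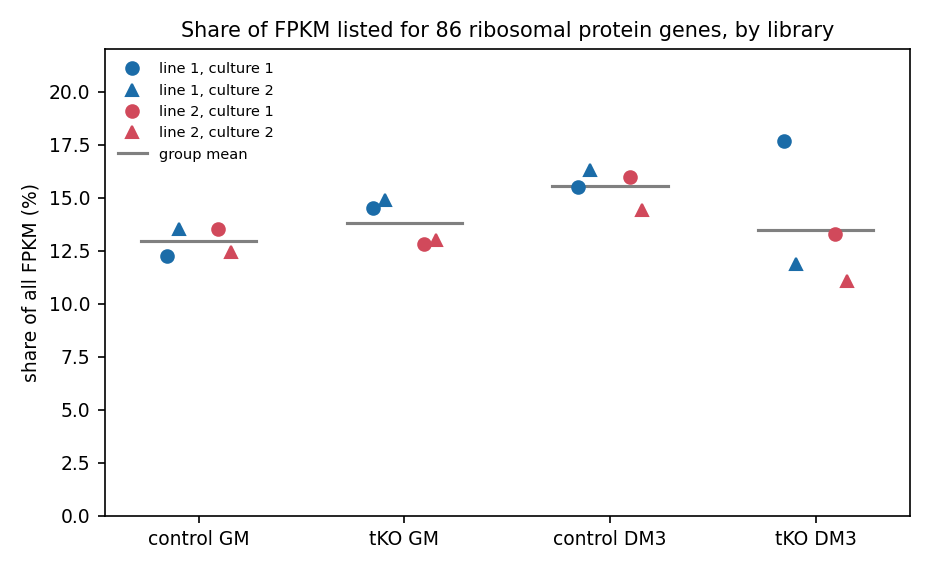
Share of all FPKM (%, y axis) listed for the 86 ribosomal protein genes in each of 16 libraries, by group (x axis). Colours mark the line, symbols the culture and grey bars the mean of 4 libraries. The 4 control DM3 libraries (14.4% to 16.3%) lie above the 4 control GM libraries (12.3% to 13.5%), and the tKO DM3 libraries spread from 11.05% to 17.7%.

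One library stood apart within its group by the members' own values, and was noticed after they were seen. Results without it show only how far they depend on it. For counts with a library left out, the shares of all tested genes called are not given here, so such counts are not read as particular to the members. The tKO DM3 library of clone 1, culture 1 had the highest value of its group for 77 of 81 tested members, and the library of clone 2, culture 2 the lowest for 66. The summed muscle markers of the 4 tKO DM3 libraries were 2004, 660, 1849 and 690 FPKM in the order above, so the culture 1 libraries of both clones were high and those of culture 2 low. The member share followed the same order of cultures within each clone, and whether the marker difference has a part in the ribosomal protein levels was not tested.

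**Figure D2:**
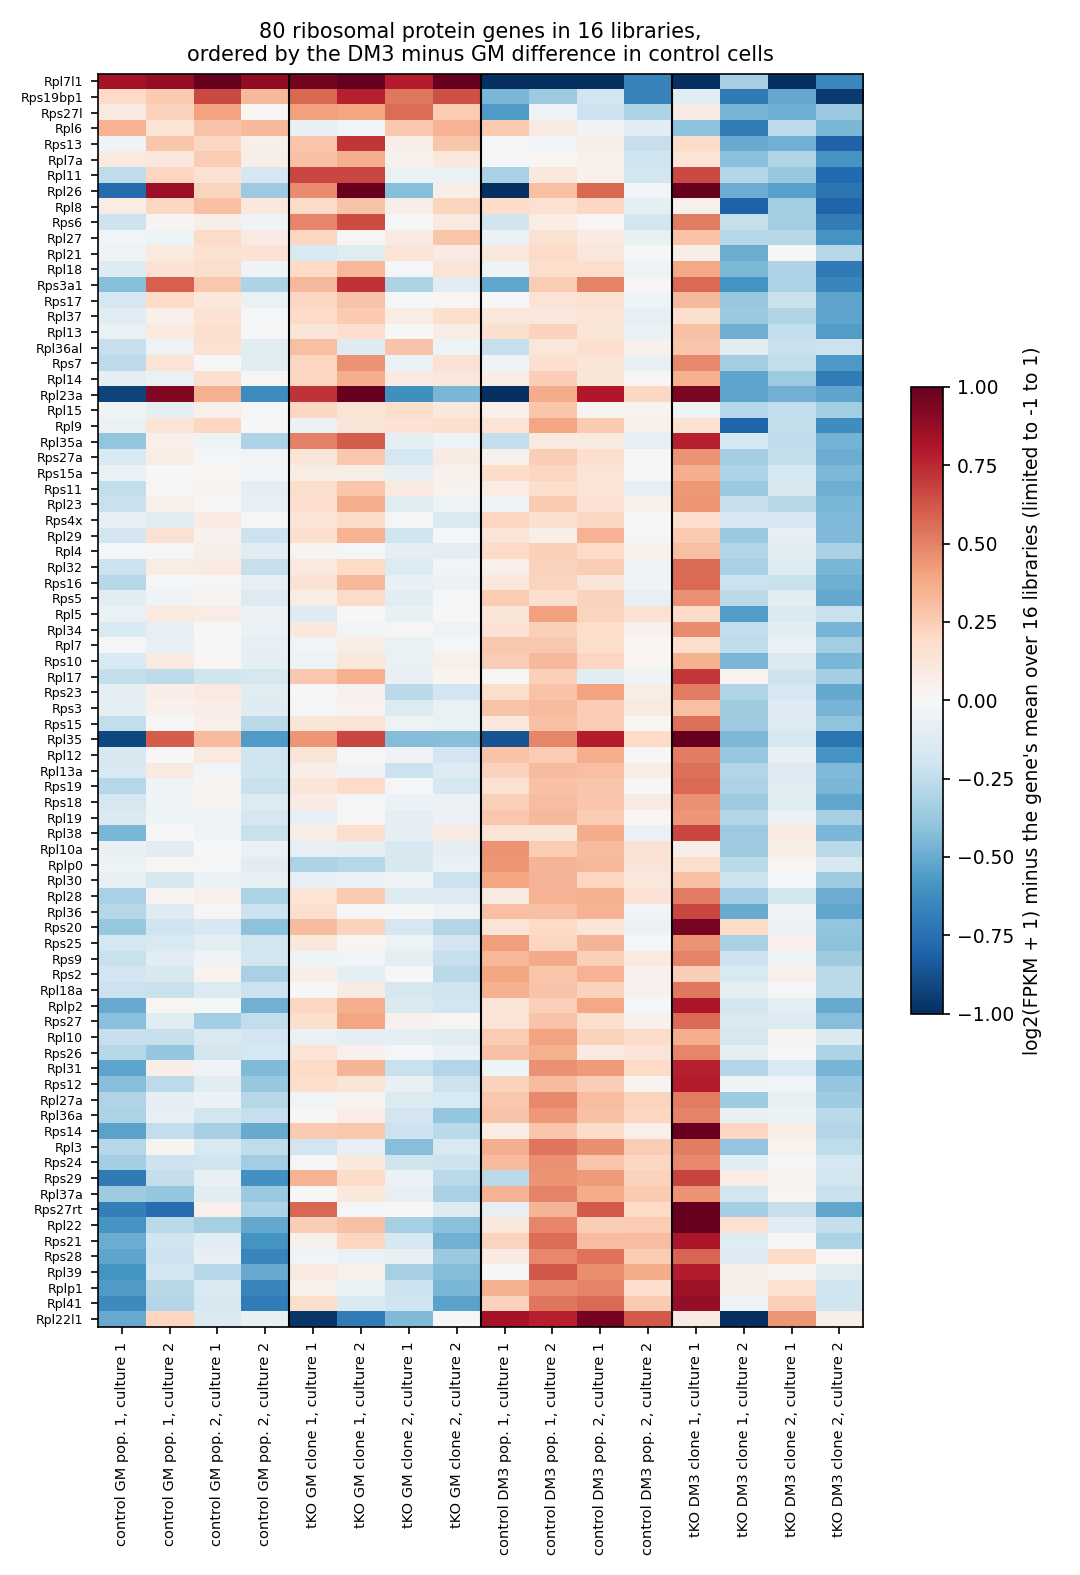
Values of 80 tested members (rows) in 16 libraries (columns), as log2(FPKM + 1) minus the gene's mean over all libraries; colours stop at -1 and 1, red is above and blue below the mean, and black lines part the 4 groups, control before tKO and GM before DM3. Rows run from the largest fall (Rpl7l1) to the largest rise (Rpl22l1) in control differentiation. The tKO DM3 library of clone 1, culture 1 is red in most rows and the other tKO DM3 libraries are blue.

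In differentiating control cells a part of the ribosomal protein genes rose and few fell. Of 81 tested members, 25 were higher and 3 lower in control DM3 than in control GM (limma on log2(FPKM + 1), Benjamini-Hochberg adjusted p under 0.05 over all 11832 tested genes). That is 34.6% of the members called, where 61.5% of all tested genes were called. By direction, 30.9% of the members were called higher where 23.2% of all genes were, and 3.70% lower where 38.3% were. The member median was 0.25 on the log2 scale, with 69 of 81 values above 0, against -0.15 for all tested genes. Muscle and fibroblast markers rose in the same libraries, and their part in the result was not tested.

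Both medians depend on scaling. Median-of-ratios scaling moved the all-gene median in control cells from -0.15 to 0.01 and the member median to 0.45, with 41 members higher and 2 lower. Relative to all genes, the member median was 0.40 higher under the deposited scaling and 0.44 higher under median-of-ratios scaling. With only the control libraries in the fit 47 members passed, and with line and culture, which pair the stages, as a replicate block in that fit 56 passed, 51 higher and 5 lower. Without control population 1 the count was 4 and without population 2 it was 7, at medians of 0.24 and 0.32.

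Among the stalk proteins, Rplp1 (ENSMUSG00000007892, chromosome 9, 61913284 to 61914538) was at 2209, 2704, 2944 and 2076 FPKM in control GM and at 4186, 4529, 4624 and 3667 in control DM3. The groups did not overlap, and the mean rose from 2483 ± 409 to 4252 ± 433 FPKM (SD, n = 4). The log2 change was 0.78 with a standard error of 0.20 (limma adjusted p = 0.00236). Rplp0 also rose, from 2262 ± 82.9 to 2898 ± 258 FPKM (SD, n = 4). Rplp2, the partner of Rplp1, overlapped between stages at 373 to 537 and 526 to 693 FPKM, and its change of 0.43 did not pass (limma adjusted p = 0.109).

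The largest rises were in very small proteins and in a paralog. Rpl41 (ENSMUSG00000093674, chromosome 10, 128548114 to 128549305) was at 1236, 1569, 1719 and 1180 FPKM in control GM and 2252, 2783, 2844 and 2302 in control DM3, without overlap. Its log2 change was 0.85 with a standard error of 0.21 (limma adjusted p = 0.00245). Rpl39, a short protein in the wall of the exit tunnel, rose from 315, 417, 390 and 336 to 474, 732, 659 and 617 FPKM, a change of 0.76. Rps28, near the mRNA exit of the small subunit, rose from 325, 407, 445 and 297 to 497, 657, 687 and 559 FPKM, a change of 0.71. For both genes the stages did not overlap (limma adjusted p = 0.00287 and 0.0016).

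Rpl22l1, the paralog of Rpl22, had the largest change of any member that rose, 0.92 with a standard error of 0.27 (limma adjusted p = 0.00722). Its values and those of Rpl22 are set out further on. Rpl3, which shapes the peptidyl transferase centre, rose by 0.57 on the log2 scale, and Rpl10, which joins the large subunit late, rose by 0.47 (limma adjusted p = 0.00576 and 0.0022). Rpl36a rose by 0.51, while its near-identical copy Rpl36al stood at 99.01 to 129 FPKM in control GM and 98.9 to 131 in control DM3. Rps27 rose by 0.44 (limma adjusted p = 0.0316).

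The 3 members that fell in control cells were not standard subunits. Rpl7l1 (ENSMUSG00000063888, chromosome 17, 46773907 to 46782656) was at 68.1, 70.2, 76.2 and 70.7 FPKM in control GM and at 15.2, 16.7, 17.1 and 23.4 in control DM3. The lowest GM value, 68.1, stood well above the highest DM3 value, 23.4, and the log2 change was -1.94 with a standard error of 0.20 (limma adjusted p = 4.81e-07). Rps19bp1 went from 47.8, 49.99, 66.2 and 52.3 to 30.0, 32.0, 36.3 and 25.7 FPKM, a log2 change of -0.78 (limma adjusted p = 0.000446). Rps27l, a paralog of Rps27 that p53 is known to induce, went from 231, 255, 287 and 220 to 146, 210, 188 and 175 FPKM, a change of -0.47 (limma adjusted p = 0.00935). All 3 were lower in every control DM3 library than in any control GM library.

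In the tKO cells no member was called higher from GM to DM3 and 15 were called lower, or 18.5% of the members, where 60.9% of all tested genes were called and 36% were lower. The member median was -0.12, the same as for all tested genes, and with median-of-ratios scaling it turned to 0.05, with 2 members higher and 6 lower. Without the library of clone 1, culture 1, 40 members were called lower and the median was -0.32. Without clone 2, culture 2 of DM3 the median turned to 0.0021, with 41 of 81 members above 0, and 2 were called higher and 9 lower. Without clone 1, culture 2 of DM3 it was -0.05, with 1 higher and 9 lower. The median was -0.21 without clone 1, with 20 lower, and -0.03 without clone 2, with 7 lower.

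Rpl7l1, Rps19bp1 and Rps27l, the 3 that fell in control cells, fell in tKO cells too. Rpl7l1 went from 74.1, 93.9, 65.6 and 80.3 to 17.3, 29.7, 12.8 and 23.8 FPKM, a change of -1.91 (limma adjusted p = 5.22e-07). Rps19bp1 changed by -1.20 and Rps27l by -0.71 (limma adjusted p = 6.97e-06 and 0.000395). For these 3 the stages did not overlap, and without clone 1, culture 1 of DM3 the changes were -1.85, -1.36 and -0.84.

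Standard subunit genes made up the other 12. Rpl8 was at 2157, 2319, 1977 and 2219 FPKM in tKO GM and at 1963, 1086, 1498 and 1088 in tKO DM3. Its log2 change was -0.66 with a standard error of 0.16 (limma adjusted p = 0.00208), and all 4 DM3 values lay below the GM values, with clone 1, culture 1 nearest to them. Rps13, a small subunit protein that contacts the large subunit, was at 659, 893, 567 and 661 FPKM in GM and 619, 383, 390 and 310 in DM3. It changed by -0.73 (limma adjusted p = 0.00213), and clone 1, culture 1 reached into the GM range. Rpl6 changed by -0.59 (limma adjusted p = 0.000856). The changes of Rpl8, Rps13 and Rpl6 without clone 1, culture 1 of DM3 were -0.84, -0.93 and -0.60 (limma adjusted p = 3.21e-05, 5.01e-05 and 0.00113).

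Per culture, the control median was above 0 in every pair of same-line cultures, at 0.37, 0.28, 0.26 and 0.20. In tKO cells it was 0.38 in clone 1, culture 1 and -0.42, -0.03 and -0.37 in the others. The cultures of clone 1 went opposite ways, with 69 of 81 members higher in DM3 in culture 1 and 76 of 81 lower in culture 2.

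**Figure D3:**
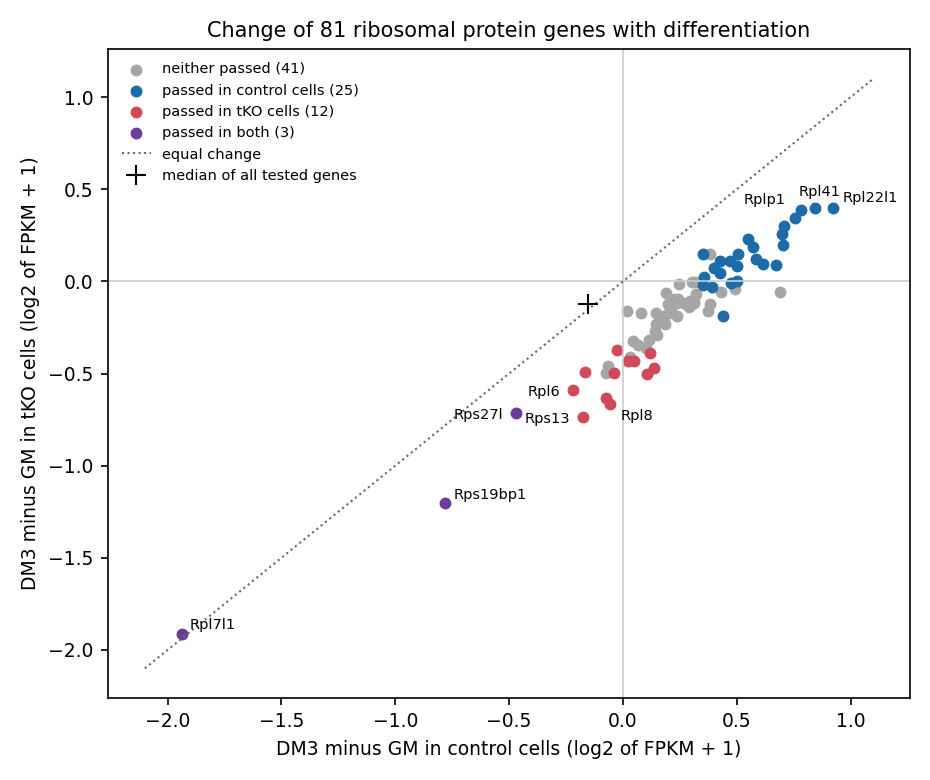
DM3 minus GM difference of the 81 tested members in control cells (x axis) and in tKO cells (y axis), both in log2 of FPKM + 1 and means of 4 libraries a group. Colour shows where a member passed limma at an adjusted p under 0.05, the dotted line marks equal change and the cross the median of all tested genes. Of the members, 80 of 81 lie below the dotted line, and Rpl7l1 lies on it at -1.94 and -1.91.

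The genotype by stage interaction asks whether differentiation changed a gene differently in tKO and control cells. Its member median was -0.41 against 0.03 for all tested genes, and 80 of 81 members were below 0. No member passed (limma adjusted p, lowest 0.143 in Rpl15), against 0.254% of all tested genes (0.0507% negative). An unadjusted p under 0.05 in limma was found for 14 of 81 members and for 1278 of 11832 tested genes. With voom on the recovered fragments no member passed either. Without the library of clone 1, culture 1, 13 members passed, all negative, and the median was -0.59. The members share their libraries, so 80 signs are not 80 separate observations.

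In growth medium no member passed the adjusted threshold for tKO against control, where 2.06% of all tested genes did (0.549% higher, 1.51% lower). The median was 0.15 against -0.01 for all tested genes, with 69 of 81 members above 0. For 6 members the tKO GM values lay wholly above the control GM values, and for 0 wholly below. Among all tested genes these counts were 636 and 1020. In limma 2 of 81 members had an unadjusted p under 0.05, as did 2076 of 11832 tested genes, and voom also called no member. The clones differed in it. Within culture 1 the median over members was 0.20 for clone 1 minus controls and 0.05 for clone 2, and within culture 2 it was 0.28 and 0.03. Without clone 2, 3 members were called higher and the median was 0.23, and without clone 1 it was 0.03. With 1 GM library left out the median ranged from 0.09 (without clone 1, culture 2) to 0.20, and it was 0.10 without control population 1, culture 1.

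In DM3, 2 members were lower in tKO than in control cells and none higher, or 2.47% of members, against 1.36% of all tested genes called lower, 2.02% called higher and 3.38% in all. The median was -0.26 against 0.01 for all tested genes, with 76 of 81 members below 0. In limma 24 of 81 members had an unadjusted p under 0.05, as did 1990 of 11832 tested genes. Rpl6 (ENSMUSG00000029614, chromosome 5, 121204481 to 121209241), a large subunit protein, was at 957, 853, 781 and 745 FPKM in control DM3 and at 600, 491, 666 and 583 in tKO DM3. All 4 tKO libraries lay below all 4 controls, and the log2 difference was -0.51 with a standard error of 0.13 (limma adjusted p = 0.0367).

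Rpl10a (ENSMUSG00000037805, chromosome 17, 28328471 to 28331032), the protein of the mobile L1 stalk, was at 564, 494, 515 and 458 FPKM in control DM3 and 430, 323, 432 and 343 in tKO DM3. The groups did not overlap either, and the difference was -0.42 with a standard error of 0.11 (limma adjusted p = 0.0456). In GM the same genes were at 879 to 1019 and 761 to 1016 FPKM (Rpl6), and at 385 to 414 and 370 to 392 (Rpl10a). Neither passed there. Over the alternatives the adjusted p ranged from 0.0166 to 0.713 for Rpl6 and from 0.014 to 0.702 for Rpl10a.

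The count of 2 rests on which libraries enter. Without clone 1, culture 1 of tKO DM3, 46 members were called lower and the median was -0.44. Rpl6 and Rpl10a were then at -0.53 and -0.48 (limma adjusted p = 0.0291 and 0.0140). The share of all tested genes called without that library is not given beside the 46. Without clone 2, culture 2 of tKO DM3 the median was -0.16, and it was -0.45 without clone 1 and -0.09 without clone 2, where 27 members were above 0. The count was 0 when any one of control population 1 culture 1, control population 1 culture 2, control population 2 culture 1, clone 1 culture 2 or clone 2 culture 2 was left out of DM3. Within culture 1 the median over members was -0.02, with 36 above and 45 below 0, and within culture 2 it was -0.49, with 80 of 81 below 0. Within culture 1 the clones went apart, with a median of 0.27 for clone 1 and -0.32 for clone 2 against the controls. The 5 members above 0 over all DM3 libraries were Rpl7l1, Rps14, Rps20, Rpl17 and Rpl35a. Rps14 and Rpl17 lie on chromosome 18, Rps20 on chromosome 4 and Rpl35a on chromosome 16. The other tested genes of these chromosomes had medians of 0.20, 0.17 and 0.13 in the same comparison. Those of chromosome 17, which holds Rpl7l1, had a median of -0.01. Whether the chromosome has a part in these values was not tested.

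The 2 clones were therefore compared with each other over both stages. Clone 2 had a member median of -0.28 against clone 1, where all tested genes had 0.03, and 74 of 81 members were below 0. Without clone 1, culture 1 of DM3 the median was -0.11, with 16 members above 0, and without clone 1, culture 2 of DM3 it was -0.47. Of the members 3 were called lower, or 3.70%, where 5.41% of all tested genes were called, 2.25% lower and 3.16% higher. The control populations differed by a median of -0.02 over the members, and no member and 0% of all genes were called there by limma or voom. An unadjusted p under 0.05 in limma was found for 0 members and for 42 of 11832 tested genes.

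Rps20, which sits in the head of the small subunit, was among the 3, at 232 and 219 FPKM in clone 1 and 166 and 152 in clone 2 in GM. In DM3 it was at 359 and 213 in clone 1 and 178 and 141.5 in clone 2. Both cultures of clone 1 were above both of clone 2 in each stage, and the log2 difference was -0.65 with a standard error of 0.15 (limma adjusted p = 0.0317). Rpl22 was also called, at -0.69 (limma adjusted p = 0.0335). Over the alternatives the adjusted p ranged from 0.00278 to 0.157 for Rps20 and from 0.00227 to 0.144 for Rpl22. Leaving out clone 1, culture 2 of DM3 brought the count to 46, and leaving out clone 1, culture 1 of DM3 left 1 higher and 1 lower. Rps20 and Rpl22 were then at -0.46 and -0.48 and did not pass (limma adjusted p = 0.0546 and 0.0558). Leaving out any other tKO library brought it to 0.

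Rpl22 and Rps20 both lie on chromosome 4, which was noticed after their values were seen, and members there were then looked at together. Beside these, Rpl11, a protein of the 5S particle that can bind Mdm2, was at -0.75 and Rps6, the substrate of the S6 kinases, at -0.60. Rpl11 and Rps6 did not pass (limma adjusted p = 0.0537 and 0.0515). The 733 other tested genes on chromosome 4 had a median of -0.24 in the same comparison, with 75 lower and 7 higher.

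Chromosome 5 went the other way. Its 734 other tested genes had a median of 0.26, with 90 higher and 3 lower, and its 5 members had a median of 0.08. They were Rpl6 at 0.28, Rpl21 at 0.16, Rplp0 at 0.08, Rpl5 at 0.02 and Rpl9 at 0.01, and together they were 5 of the 7 members not lower in clone 2. The other genes of chromosome 19, which holds no tested member, had a median of -0.20 and those of chromosome 18 one of -0.10. On every other chromosome the median lay between 0.01 and 0.09. The pattern was there in each stage, at -0.26 in GM and -0.23 in DM3 for the other genes of chromosome 4 and at 0.23 and 0.26 for those of chromosome 5. Between the control populations the medians of the same 2 chromosomes were 0.01 and 0.01 in GM and 0.05 and 0.06 in DM3.

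**Figure D4:**
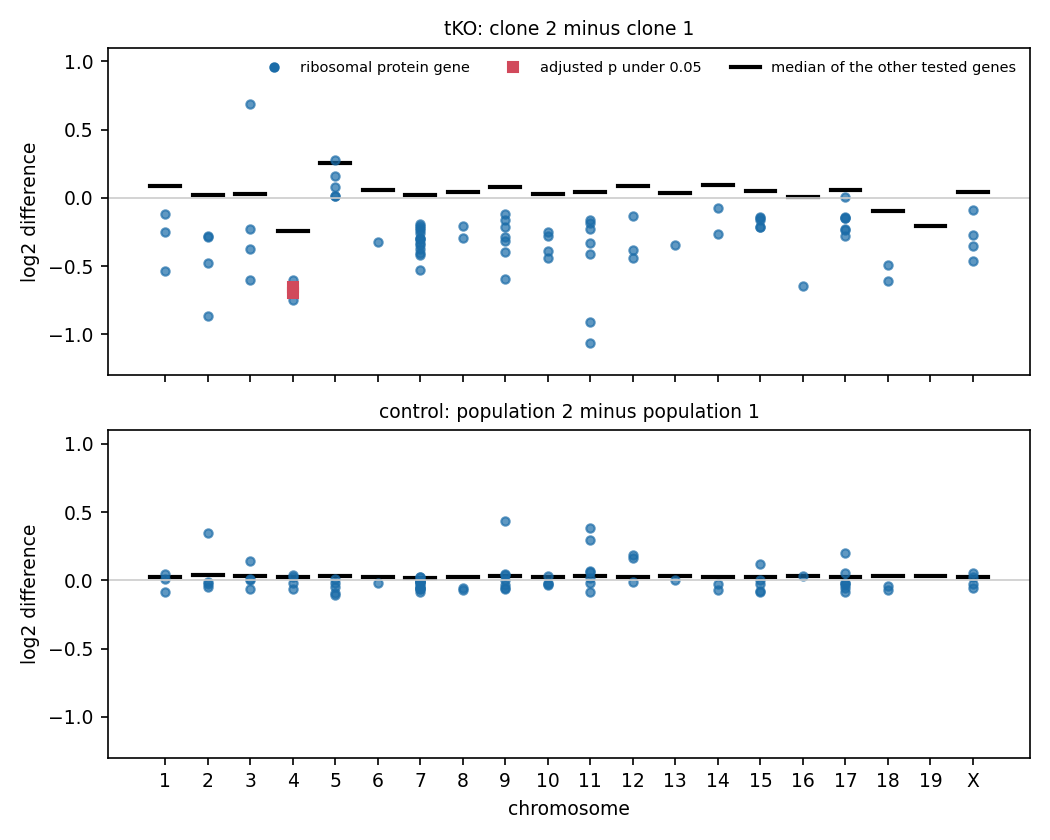
Line differences (log2 of FPKM + 1, y axis) by chromosome (x axis) for tKO clone 2 minus clone 1 (top) and control population 2 minus population 1 (bottom). Points are ribosomal protein genes, red squares those with a limma adjusted p under 0.05, and black bars the median of the other tested genes of the chromosome. In the top panel the members drawn on chromosome 4 lie between -0.75 and -0.60 and those of chromosome 5 between 0.01 and 0.28.

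Rpl22 and Rpl22l1 are paralogs that can replace each other in the large subunit, and loss of Rpl22 is known to raise Rpl22l1. Rpl22 (ENSMUSG00000028936, chromosome 4, 152325742 to 152334071) was at 107, 133, 128 and 112 FPKM in control GM and 191, 197, 127 and 120 in tKO GM. In DM3 it was at 173, 226, 191 and 192 in control and 323, 179, 150 and 136 in tKO cells. Clone 1 was above all controls in GM, and clone 2 was below all controls in DM3.

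Rpl22l1 (ENSMUSG00000039221, chromosome 3, 28805436 to 28807352) was at 131, 216, 168 and 177 FPKM in control GM and 94.3, 114, 137 and 184 in tKO GM. In DM3 it was at 332, 320, 363 and 286 in control and 197, 85.5, 253 and 194 in tKO cells. Every tKO DM3 library was below every control DM3 library, and in GM both cultures of clone 1 were below both of clone 2. The DM3 difference between genotypes was -0.93 with a standard error of 0.27 and did not pass (limma adjusted p = 0.0729), nor did the GM difference of -0.41 (adjusted p = 0.464). Leaving out clone 1, culture 1 gave a DM3 difference of -0.999 (limma adjusted p = 0.0563).

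As a ratio of FPKM within a library, which no scaling between libraries changes, Rpl22l1 over Rpl22 was 0.479 to 0.609 in the 4 libraries of clone 1. It was 1.08 to 1.92 in the 12 other libraries, clone 2 among them. So in FPKM Rpl22 exceeded Rpl22l1 in 4 of 4 libraries of clone 1 and in 0 of 12 others. This split was noticed after the values were seen, and it follows 1 clone rather than the genotype. Where the ratio crosses 1 depends on the listed lengths, 2051 bases for Rpl22 and 489 for Rpl22l1. In fragments Rpl22 was above Rpl22l1 in every library. Between the clones Rpl22l1 was 0.69 higher in clone 2 and did not pass (limma adjusted p = 0.117), while Rpl22 was lower by the same size and passed. Without clone 1, culture 1 of DM3, Rpl22l1 was 0.99 higher in clone 2 and passed (limma adjusted p = 0.0169), and Rpl22 did not.

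**Figure D5:**
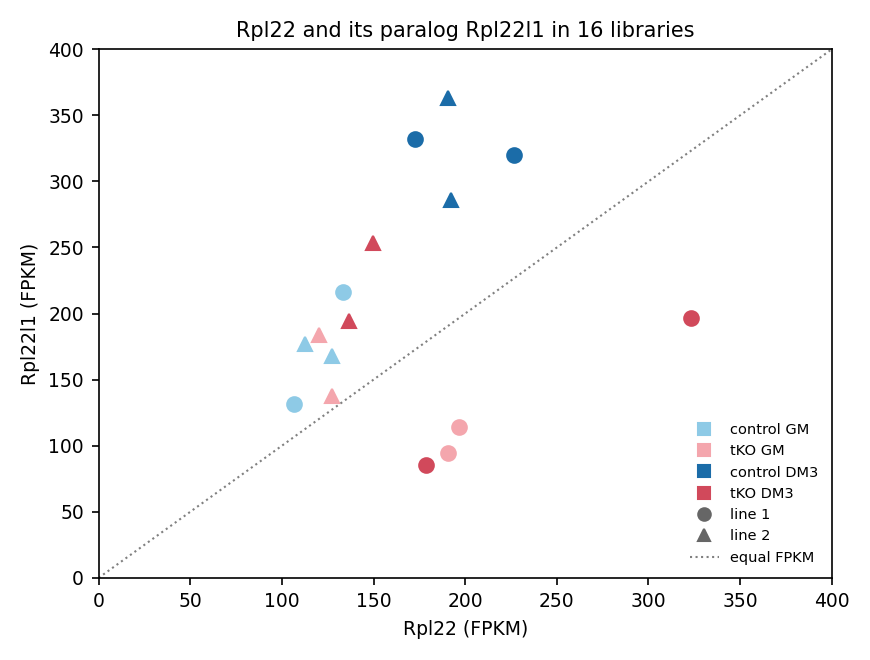
Rpl22 (x axis) and Rpl22l1 (y axis) in each of 16 libraries, both in FPKM; colours mark the group, circles line 1 and triangles line 2, and the dotted line marks equal FPKM. The 4 libraries of tKO clone 1 lie under the line, at ratios of 0.479 to 0.609, and the other 12 above it. The place of the line relative to the points depends on the listed gene lengths.

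Rps27l over Rps27, another pair of paralogs, was 0.242 to 0.338 in control and 0.202 to 0.290 in tKO cells in GM. It was 0.124 to 0.160 in control and 0.144 to 0.209 in tKO cells in DM3. The ratio was thus lower in every DM3 library than in any control GM library. Rpl7, the subunit related to Rpl7l1, stood at 688 ± 16.2 FPKM in control GM and 812 ± 65.1 in control DM3 (SD, n = 4). Rps4x stood at 996 ± 59.6 and 1128 ± 70.9, and its relative Rps4l at 0.

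Some members varied far more between libraries of 1 group than others. The median within-group SD of a member was 0.240 on the log2 scale against 0.223 for all tested genes. Rpl23a had the largest SD, 0.82, and was at 49.8, 148, 200 and 132 FPKM within control DM3, a 4.02-fold range. Rpl26, Rpl35, Rps27rt and Rps3a1 came next, with SDs of 0.73, 0.70, 0.50 and 0.49. For Rpl23a, Rpl26, Rpl35 and Rps3a1, grouped after their values were seen, the same library was highest, and the same library lowest, within each of the 4 groups. That highest library was population 1 culture 2 in control GM, clone 1 culture 2 in tKO GM, population 2 culture 1 in control DM3 and clone 1 culture 1 in tKO DM3. Rps27rt shared the highest and lowest libraries in DM3 and not in GM, where it was highest in population 2 culture 1, at 10.3 FPKM, and in clone 1 culture 1, at 15.2.

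Shorter members had the higher differences in both stage comparisons and in both genotype comparisons. Each r given here for coding length is Pearson's, taken on the log2 of that length. Across 78 subunit genes the correlation of coding length with the control DM3 minus GM difference was r = -0.42 (Spearman's rho = -0.40), against r = -0.08 across all 10850 tested genes with a coding length. It was r = -0.34 in tKO differentiation, -0.46 for the GM genotype difference and -0.33 for that in DM3 (rho = -0.30, -0.50 and -0.43), against 0.0050, -0.18 and 0.06 across all genes. The tKO differentiation and DM3 genotype values were -0.26 and -0.24 without clone 1, culture 1 of DM3. These points are genes measured in the same libraries, not replicates, and the comparisons share groups. Of the 26 shortest (138 to 390 coding bases) 14 rose and 1 fell, with a median of 0.44. Of the middle 26, 4 rose, and of the 26 longest (582 to 1257 bases) 7 rose, with medians of 0.19 and 0.21. In tKO cells the 3 medians were -0.02, -0.18 and -0.13, and without clone 1, culture 1 of DM3 -0.18, -0.37 and -0.28. By start-site run, the control median was 0.31 over 26 subunit genes with a run of at least 8 bases, 0.31 over 9 with a run of 6 or 7 and 0.20 over 23 without a run. Of these, 7, 4 and 8 rose, and the groups were not tested against each other.

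Lists of other genes around ribosome production were followed beside the members. Their counts stand beside 23.2% of all tested genes higher and 38.3% lower in control differentiation, and 24.9% and 36% in tKO differentiation. Of 57 tested ribosome biogenesis genes, 54 fell and 2 rose from GM to DM3 in control cells, with a median of -1.14, and in tKO cells 55 fell and 2 rose, with a median of -1.62. Nop56, a core protein of the methylation-guide particles, fell by 3.02 and Dkc1, the pseudouridine synthase, by 2.37 on the log2 scale in control cells (limma adjusted p = 7.45e-09 and 2.7e-08). Nop10 and Imp3 were the 2 that rose, by 0.866 and 1.095 (adjusted p = 4.03e-05 and 8.32e-05). Rpl7l1 and Rps19bp1, the assembly-related members, fell with this list in both genotypes.

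Of 15 tested genes of the RNA polymerase I machinery, which makes the ribosomal RNA, 9 fell and 2 rose in control cells and 11 fell in tKO cells. Ubtf, its main activator, changed by -1.72 and Polr1a, its largest subunit, by -1.63 in control cells (limma adjusted p = 3.32e-07 and 2.87e-07). Mitochondrial ribosomal proteins, of which 76 were tested, had 35 lower and 6 higher with control differentiation (median -0.27) and 48 lower and 1 higher with tKO differentiation (median -0.47).

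Translation factors and other known TOP mRNAs were mixed, with 8 of 24 higher and 9 lower as control cells differentiated, near those shares of all genes, and 14 lower and 4 higher as tKO cells did. Eef2, the elongation factor of translocation, rose by 0.87 and Tpt1 by 0.90 in control cells (limma adjusted p = 3.05e-05 and 1.25e-05). Cct6a, a chaperonin subunit, fell by 1.54 (adjusted p = 3.63e-07). Of 20 mTORC1 pathway and S6 kinase genes, 4 rose and 9 fell in control cells and 5 rose and 11 fell in tKO cells, with the control counts again near the shares of all genes. Eif4ebp1, the repressor of the cap-binding protein, rose by 1.05 and Rps6kb1, an S6 kinase, fell by 1.14 in control cells (adjusted p = 0.000456 and 5.66e-05). Of 12 genes of the p53 response to ribosomal stress, 4 rose and 3 fell in control cells and 3 rose and 5 fell in tKO cells. The tKO counts without clone 1, culture 1 of DM3, higher then lower, were 1 and 55 for biogenesis, 0 and 11 for polymerase I, 1 and 48 for mitochondrial ribosomal proteins, 3 and 15 for the TOP list, 5 and 10 for mTORC1 and 3 and 4 for p53.

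With all libraries, no ribosome biogenesis gene passed in GM or DM3, though 56 of 57 were above 0 in tKO GM, with a median of 0.28 against -0.01 for all genes. In GM 20 of these 57 genes had an unadjusted p under 0.05 in limma, as did 2076 of 11832 tested genes. Between the clones Npm1, Gar1 and Ebna1bp2 of that list were lower in clone 2, at -0.60, -0.49 and -0.74 (limma adjusted p = 0.0335, 0.0393 and 0.0311). Of the 4 subunit genes outside the name rule none passed between stages or genotypes, and Fau was lower in clone 2, at -0.67 (adjusted p = 0.0325). In the TOP list 1 of 24 genes was called lower in tKO DM3 and none higher. Without clone 1, culture 1 of DM3, 12 of the TOP list, 2 of the subunit genes outside the name rule and 1 biogenesis gene were called lower in tKO DM3, and 1 of those subunit genes was lower with tKO differentiation.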

How the data were processed

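RNA-seq was measured in 16 libraries, grouped by the sample titles into 4 groups of 4 by genotype and medium. The deposited table gives FPKM (fragments scaled by gene length and library depth) in 1 column per library, unpooled, with each gene's length, position and type. STAR, DESeq and the mouse build mm10 are named in the submitters' processing notes, while the counting program and annotation are not given in the sources used here. Whether counting used strand or shared out reads among copies is also not given. All 86 members overlap a GENCODE release M21 gene of the same identifier on the same chromosome, and 51 have the same start and end.

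From the deposited FPKM values, whole fragments were recovered for 100% of values per library and served depth, the floor of 3 fragments and the voom alternative. The floor covers counting error only. Genes with a mean of at least 0.5 FPKM (11832) entered limma 3.58.1 (R 4.3.3) on log2(FPKM + 1), as a group-means model over 16 libraries with trend and robust moderation and p-values adjusted by Benjamini-Hochberg over all of them. Fold changes on this scale understate the change of low genes. Lines of 1 genotype were compared over 8 line-by-stage means. The procedure was tested on simulated data. Python 3.11.15, numpy 2.4.6 and pandas 2.3.3 were used.

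The labels state no pairing of libraries, and the main fit used none. For the replicate block and the medians per culture, GM and DM3 libraries of the same line and culture number were treated as pairs. Their deviations from group means correlated across genes with a mean r of 0.200 (0.0771 to 0.323 over 8 pairs). Genotype comparisons share only a culture number (mean r 0.218).

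The members, the gene lists (ribosome biogenesis, RNA polymerase I, translation factors and TOP mRNAs, mTORC1 and S6 kinases, p53 targets, mitochondrial ribosomal proteins, subunits outside the name rule, cell type markers) and the tests were chosen with earlier results of these data known. Members named in a comparison were the 5 largest rises and falls among those that passed, listed paralogs, the 5 highest and 5 lowest levels and members that are not subunits, with up to 3 genes each way per list. Members outside this rule (Rpl5, Rpl8, Rpl11, Rpl17, Rps3a1, Rps6, Rps14, Rps19, Rpl21, Rpl9, Rpl23a, Rpl35, Rpl35a among others) were named after their values were seen. RefSeq sequences were matched by symbol for 65 members. Alternatives were a pseudocount of 0.1, dropping the filter or raising it to 5 FPKM, TPM, scaling by median of ratios, voom, only the compared libraries, line averages, replicate blocks and leaving out each library or line. Some items are not reported here, by name or in the plots by gene and by chromosome.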

Additional observations from a re-analysis of the deposited data

Results flagged for a closer look

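A library far from the other 3 of its group was looked for in 64 groups of 4 values. These were the values of the named members and of the members' share of FPKM in each group. In all 4 were found, none of them in the share. Chance gives about 1 in 20. The measure was the gap to the nearest other value over the group's range (Dixon's test). In tKO DM3, Rpl39 stood at 822 FPKM in clone 1, culture 1 against 438 to 496 in the other libraries. Rps27l stood at 230 FPKM in the same library against 154 to 167. In tKO GM, Rps28 stood at 363 FPKM in clone 2, culture 2 against 446 to 460. Rpl10a stood at 370 FPKM in clone 2, culture 1 of tKO GM against 389 to 392, a narrow range.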

How the results depend on the processing

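Counts of called members moved most with the libraries used. Shares of all tested genes called under these alternatives are not given here, so the moves are not read as particular to the members. For tKO against control in DM3 the count of 2 ranged from 0 to 46 when 1 library was left out. It was 1 without a filter, 1 with a filter of 5 FPKM, 4 with TPM, 0 with median-of-ratios scaling, 0 with only the compared libraries and 0 with line averages. It was 0 without control population 1, 0 without population 2 and 28 without clone 1. In GM the count of 0 became 3 without clone 2. For control differentiation the count of 28 ranged from 22 to 29 with 1 library left out and was 43 with median-of-ratios scaling, 47 with only the compared libraries, 4 without population 1 and 7 without population 2. For tKO differentiation the 15 ranged from 10 to 40, and were 8 with median-of-ratios scaling, 8 with only the compared libraries and 7 without clone 2. The interaction ranged from 0 to 13. Between the clones the 3 ranged from 0 to 46, and were 0 without a filter, 6 with TPM, 0 with median-of-ratios scaling and 0 with only the compared libraries. The count of 0 between the control populations was 0 under every alternative run.

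With line and culture as a replicate block, fitted to only the compared libraries, the control differentiation count was 56, against 47 in the same libraries without the block. Where the culture number alone was the replicate block, the DM3 genotype count was 4 and the clone count 6, and no other count with a block differed from the count without it by more than 1.5 times. The causes were not tested.

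For the named members, 432 of 510 values under an alternative kept their direction and side of the threshold, 68 lost the call, 5 gained it and 5 reversed. All 5 reversals were in Rpl22. Its DM3 genotype difference turned to 0.0013 without control population 1 culture 2, 0.032 without clone 2 culture 1, 0.075 without clone 2 culture 2 and 0.30 without clone 2, with a range of -0.34 to 0.075 when 1 library was left out. Its tKO differentiation difference turned to -0.0084 without clone 1 culture 1 and ranged up to 0.40. None of these passed. With 4 libraries a group and a member SD of 0.240, changes well above that size could also fail to pass. Between genotypes in DM3, Rpl8 at -0.59 and Rpl22l1 at -0.93 did not pass (limma adjusted p = 0.0584 and 0.0729).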
